A study of Mus musculus with 6 samples.

Results

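Among the 104011 peaks of 5-methylcytosine (5mC) listed for mouse fibroblasts, 25475 had no peak of 5-hydroxymethylcytosine (5hmC) in the fibroblasts but had both marks in induced pluripotent stem (iPS) cells made in the same system. These are called dual-mark peaks here. They were chosen by the overlap of peaks: fibroblast 5mC peaks qualified that shared no base pair with a fibroblast 5hmC peak and at least 1 bp with an iPS 5hmC peak and with an iPS 5mC peak. They made up 24.5% of all fibroblast 5mC peaks and 27.6% of the 92420 that lacked 5hmC in fibroblasts. The peak lists of fibroblasts and iPS cells chose them, so their state at these stages is described without a test. The lists taken after 3 days of induction were not used in the choice, and the comparisons below rest on them.

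5mC is the cytosine modification that DNA methyltransferases place, mostly at CpG dinucleotides, and that is associated with stable silencing at many promoters and repeats. Tet enzymes, Tet1 among them, oxidise 5mC to 5hmC, which can be an intermediate on the way to unmodified cytosine or can persist. Tet1 is strongly expressed in pluripotent cells, and 5hmC is more abundant there than in most cultured fibroblasts. A region that carries peaks of both marks can hold them on neighbouring cytosines of 1 molecule, on the other allele or in other cells of the culture, and antibody capture of bulk DNA cannot tell these apart.

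The data came from 6 libraries of genomic DNA, captured with a polyclonal antibody to 5hmC or a monoclonal antibody to 5mC, at 3 stages with 1 library per stage and mark. The fibroblasts were at passage 4 and derived from mice made from TSKM iPS cells, in which doxycycline switches on Tet1, Sox2, Klf4 and c-Myc. The day-3 cells were such fibroblasts at passage 4 after 3 days of doxycycline, and the iPS cells were a line of this system at passage 10 to 15. All cells had the strain background OG2-GFP/Rosa26-M2rtTA, so the controls carried the inducible system too. Per the labels' protocols the medium changed from feeder medium to ES medium together with the doxycycline, so the factors and the medium cannot be told apart. The iPS cells were a single line, grown on mitomycin C-treated feeder fibroblasts that were cleared by a short plating step before collection, and how many feeder cells remained is not given. No expression data were used, so the cell types could not be checked against markers.

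The lists held 42301 to 174079 peaks, and the number of reads behind them is unknown. Each peak has a score from the authors' peak caller that rises with enrichment and with library depth. It is therefore used only to rank peaks within a list. There were no replicates, so no p-value is given, and day-3 cells without doxycycline were not analysed here. Intervals in brackets are 95% Wilson intervals for shares and 95% Newcombe intervals for differences. They cover counting error only, and since neighbouring peaks are not independent they are too narrow. The build is mm9. No genome or annotation of that build was used here, so regions are given by position, without genes or sequences.

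At day 3 the 5mC peak was still listed on nearly all dual-mark peaks, and 5hmC had appeared on 30.8% of them (30.2 to 31.3), or 7835 peaks. Over all 92420 fibroblast 5mC peaks without fibroblast 5hmC, the background share with day-3 5hmC was 27.7%, so the dual-mark peaks lay slightly above it. This background includes the dual-mark peaks and was not matched for fibroblast 5mC score or width. Both were higher on dual-mark peaks, as given below, so the small excess need not hold at equal score. Of the dual-mark peaks, 30.1% (29.6 to 30.7) carried both marks at day 3, against a background of 25.4%, and 67.5% (67.0 to 68.1) carried 5mC alone. A further 0.608% carried 5hmC alone and 1.72% carried neither mark. Thus 7680 of the 25475 peaks had peaks of both marks at day 3, and 17203 still had the fibroblast state of 5mC alone. Both marks at day 3 were not particular to dual-mark peaks. They lay on 31.8% (31.4 to 32.3) of the fibroblast 5mC peaks without fibroblast 5hmC that had only 5hmC in iPS cells. The share was 11.1% of those with only 5mC and 16.3% of those with neither mark in iPS cells. In all, 17640 dual-mark peaks had no day-3 5hmC.

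Set against the other fibroblast 5mC peaks that lacked fibroblast 5hmC, the dual-mark peaks fell between the groups in day-3 5hmC and above each of them in day-3 5mC. The share with day-3 5hmC was 35.2% (34.7 to 35.7) of the 34613 peaks that had only 5hmC in iPS cells, called 5hmC-only peaks. It was 11.9% (11.2 to 12.6) of the 8925 5mC-only peaks and 19.5% (19.01 to 20.03) of the 23407 peaks with neither mark in iPS cells. The dual-mark peaks minus the 5hmC-only peaks gave -4.40 percentage points (-5.16 to -3.65). The same difference was 18.9 points (17.97 to 19.7) against 5mC-only peaks and 11.2 points (10.5 to 12.0) against peaks with neither mark. Over all peaks of each class, day-3 5hmC was thus most frequent on both classes that carried 5hmC in iPS cells. It was less frequent on the one that also kept 5mC than on the one that did not. This order did not hold at the highest fibroblast 5mC scores, given below, where peaks with neither mark had day-3 5hmC more often than dual-mark peaks.

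**Figure D1:**
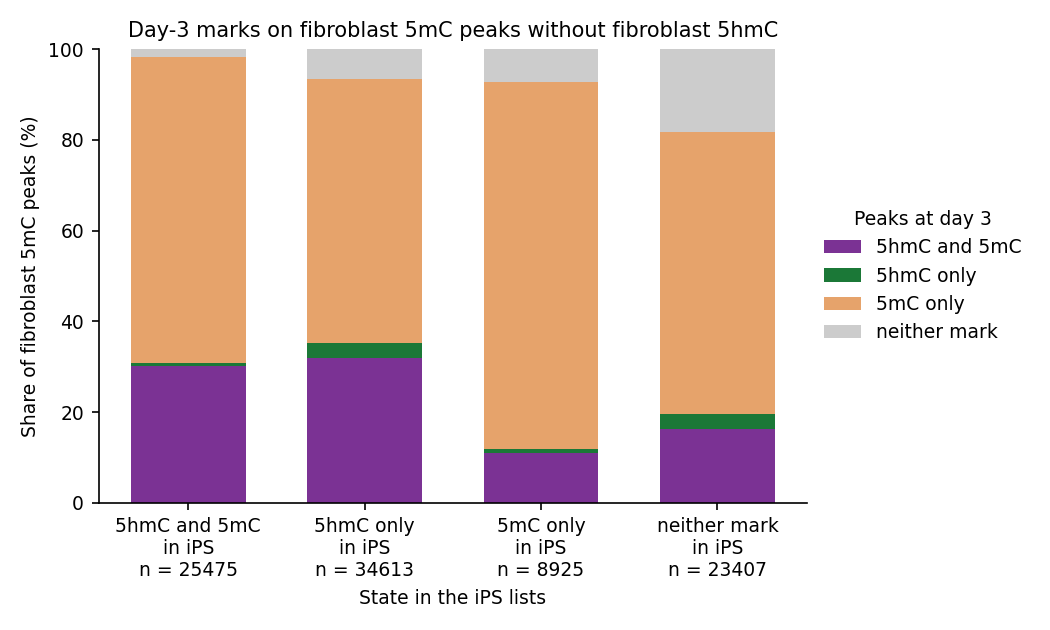
Each bar is 1 class of fibroblast 5mC peaks without fibroblast 5hmC, by its state in the iPS lists (x axis, with the number of peaks), and the y axis gives the share of its peaks, in percent, with each combination of marks at day 3. On dual-mark peaks (left bar) 30.1% had both marks at day 3 and 1.72% had neither, against 16.3% and 18.1% for peaks with neither mark in iPS cells (right bar). For peaks with only 5hmC in iPS cells these shares were 31.8% and 6.53%.

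The difference from the 5hmC-only peaks depended on how neighbouring peaks were counted. It lay between -7.81 points, on chromosome 6, and 2.02 points, on chromosome 17, and the dual-mark peaks had the lower share on 18 of 19 autosomes. Within the same windows of 100 kb it was -4.81 points. When peaks of a list within 1000 bp of each other were joined before counting, it shrank to -0.569 points and its interval (-1.42 to 0.283) included 0. The difference from 5mC-only peaks was above 0 on 19 of 19 autosomes, with a range from 11.7 to 24.9 points, and so was that from peaks with neither mark, from 8.405 to 17.999 points.

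Dual-mark peaks were wider and had higher scores in the fibroblast 5mC list than the other classes. Their median width was 1095 bp, against 930 bp for 5hmC-only, 911 bp for 5mC-only and 840 bp for peaks with neither mark. Their median fibroblast 5mC score was 141.5, with quartiles of 90.6 and 236, against 87.5, 86.0 and 68.7 in the other classes. In ranks, their median lay at the 74.1th percentile of the fibroblast 5mC list, against the 47.8th for 5hmC-only peaks. Of the 9242 highest-scoring fibroblast 5mC peaks without 5hmC, which all had a score of at least 236.09, 69.0% (68.0 to 69.9) were dual-mark peaks. A wide peak has more positions at which another peak can overlap it, and a region captured well in fibroblasts may be captured well later, so width and score move with membership. Their part in the choice of members was not tested.

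The comparison at day 3 was therefore repeated within 5 equal groups of the 92420 peaks by score and by width. In each of the 5 score groups dual-mark peaks had day-3 5hmC less often than 5hmC-only peaks, with differences from -7.02 to -8.56 points. In the width groups the differences ran from -6.29 to -9.25 points, so in each group the distance was larger than over all peaks. From the lowest to the highest score group the share rose from 23.3% to 37.3% on dual-mark peaks and from 30.3% to 45.2% on 5hmC-only peaks. On 5mC-only peaks it stayed at 10.8% to 13.8% in the 5 score groups. Weighted to the width and score of the dual-mark peaks, a comparison added after the data were seen, the difference from 5hmC-only peaks was -8.55 points and that from 5mC-only peaks 17.3 points.

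In the groups by score alone, the difference from peaks with neither mark turned in the highest group. From the lowest score group up it was 7.70, 6.003, 5.39 and 2.85 points, each with an interval above 0, and it was -7.26 points (-10.5 to -4.10) in the highest, where 44.6% of the 1021 peaks with neither mark had day-3 5hmC. In the 5 width groups it was 6.58, 6.19, 6.30, 0.321 and 4.48 points, and in the fourth the interval (-1.65 to 2.25) included 0. In joint groups of width and score with at least 20 peaks of each class, the dual-mark peaks had the higher share in 15 of 22. Weighted to the width and score of the dual-mark peaks, whose scores were higher, the difference was -1.43 points, against 11.2 without weights. Among the 9242 highest-scoring peaks, day-3 5hmC lay on 53.4% (48.1 to 58.6) of the 339 peaks with neither mark. The share there was 41.5% on dual-mark, 49.3% on 5hmC-only and 15.3% on 5mC-only peaks.

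**Figure D2:**
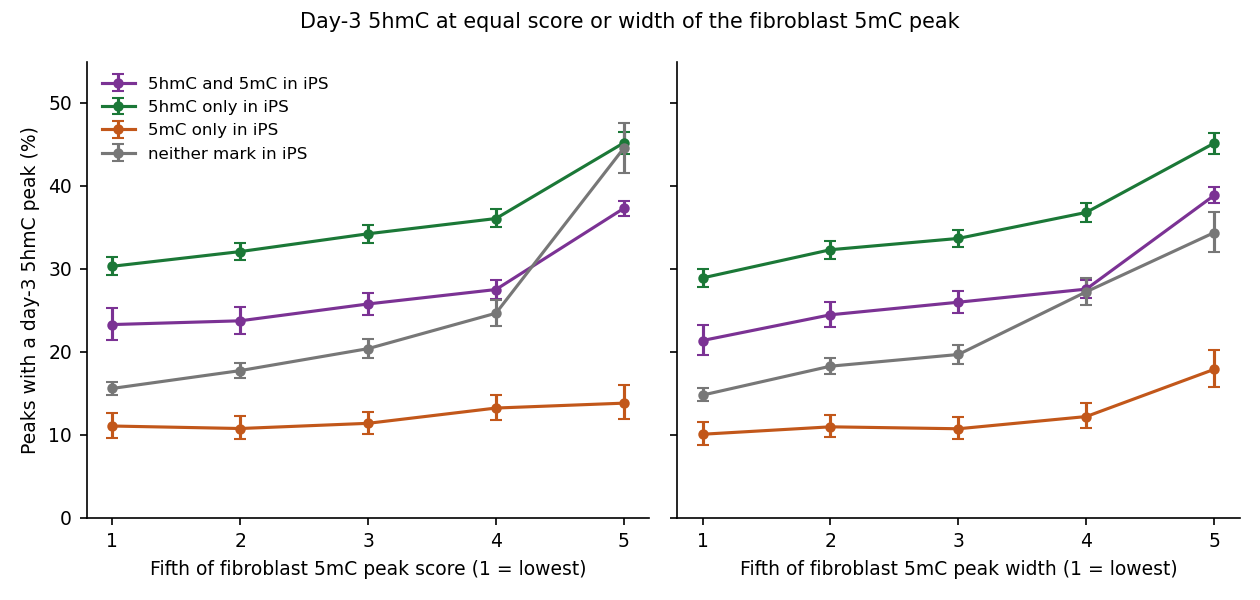
The y axis gives the share, in percent, of fibroblast 5mC peaks with a day-3 5hmC peak, and the x axis the 5 equal groups by fibroblast 5mC score (left) or width (right), for the 4 iPS classes, with bars for 95% Wilson intervals. The dual-mark line lies under the 5hmC-only line and above the 5mC-only line in each group, and the line of peaks with neither mark crosses it in the highest score group, at 44.6% against 37.3%.

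Over all peaks, 5mC persisted to day 3 on dual-mark peaks more often than on the other classes, by a margin that narrowed with score. A day-3 5mC peak lay on 97.7% (97.5 to 97.9) of the dual-mark peaks, or 24883 peaks. The background over fibroblast 5mC peaks without 5hmC was 89.5%. The shares were 90.2% (89.8 to 90.5) for 5hmC-only, 92.1% (91.5 to 92.6) for 5mC-only and 78.7% (78.2 to 79.2) for peaks with neither mark. Dual-mark peaks exceeded 5hmC-only peaks by 7.52 points (7.16 to 7.89). This difference narrowed with score, from 11.7 points in the lowest score group to 0.0543 points (-0.0114 to 0.169) in the highest, where 99.98% and 99.93% of the peaks had day-3 5mC. In the highest score group a lower 5mC persistence of 5hmC-only peaks was thus not detectable in these lists. The differences from 5mC-only and neither-mark peaks narrowed too, from 6.26 and 22.4 points in the lowest score group. In the highest they were 0.0770 points (-0.0153 to 0.520) and 0.275 points (0.0757 to 0.842). A day-3 5mC peak lay on 98.0% (97.7 to 98.3) of the dual-mark peaks with day-3 5hmC and on 97.5% (97.3 to 97.7) of those without it. The rule asks for 5mC before and after day 3, so these shares could hardly show a loss of 5mC. That difference of 0.499 points changed sign under several ways of counting. With and without day-3 5hmC, the shares were 90.6% and 89.9% for 5hmC-only peaks and 93.2% and 91.9% for 5mC-only peaks. For peaks with neither mark in iPS cells they were 83.8% and 77.5%.

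In base pairs, the dual-mark peaks spanned 32.9 Mb. Day-3 5mC peaks covered 91.9% of this length, iPS 5hmC peaks 84.9%, iPS 5mC peaks 75.4% and day-3 5hmC peaks 21.3%, while fibroblast 5hmC covered none of it by the rule. The median dual-mark peak had 97.0% of its length under day-3 5mC, 92.3% under iPS 5hmC and 83.8% under iPS 5mC. The lists as a whole cover 170 Mb for day-3 5mC, 187 Mb for iPS 5hmC, 59.7 Mb for iPS 5mC and 127 Mb for day-3 5hmC, so the order of these values was not read as a difference between the marks.

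The arrangement of both iPS marks inside the dual-mark peaks is a description, since the rule placed both on the same short region and each covered most of it. The iPS 5hmC and iPS 5mC peaks shared at least 1 bp inside 98.9% of the peaks (98.7 to 99.0), a share that this geometry largely sets, and in 291 they did not. Of the length of the dual-mark peaks, 67.0% was under both iPS marks, 17.9% under 5hmC alone, 8.35% under 5mC alone and 6.72% under neither. The centres of the overlapping iPS peaks were 171.5 bp apart in the median, with quartiles of 65.25 and 434.5 bp, which is within the length of the sequenced fragments of 300 to 500 bp for most of them. In 59.6% of the dual-mark peaks the centres lay within 250 bp of each other. The iPS 5hmC peak was wider than the iPS 5mC peak in 69.1% (68.5 to 69.6) of cases, with median widths of 1199 and 948 bp.

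Most dual-mark peaks met 1 peak of each iPS list. A single iPS 5hmC peak lay on 23867 of them and a single iPS 5mC peak on 24390, and the largest numbers on 1 peak were 4 and 5. The dual-mark peaks accounted for 42.6% of the whole iPS 5mC list and for 15.0% of the iPS 5hmC list, as shares of each list's own peaks. The numbers of distinct peaks were similar, 26033 and 26119. The shares differ because the lists hold 61171 and 174079 peaks. The iPS 5hmC peaks on them had a median score of 182.39, at the 74.7th percentile of that list, and the other iPS 5hmC peaks had 98.7. For iPS 5mC the medians were 87.8 and 69.6. These peaks chose the members, and those on dual-mark peaks were also wider than the others, with medians of 1155 against 878 bp for 5hmC and 942 against 843 bp for 5mC, so their scores are given as a description only.

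The arrangement differed between peaks with and without early 5hmC. The 7835 dual-mark peaks with day-3 5hmC were wider in fibroblasts, with a median of 1216 bp against 1059 bp, and had higher fibroblast 5mC scores, with medians of 169.2 and 132.8. In iPS cells, 5hmC covered 87.2% of the length of those with day-3 5hmC and 83.7% of those without. For iPS 5mC the order was the opposite, with 71.2% and 77.6%. The iPS 5hmC peak was wider than the iPS 5mC peak in 78.1% (77.1 to 79.0) of those with and 65.1% (64.4 to 65.8) of those without day-3 5hmC. Centres of both iPS peaks lay within 250 bp of each other in 52.0% and 63.0%.

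These contrasts held within 5 equal groups of the dual-mark peaks by fibroblast 5mC width and by score. In each of the 10 groups, iPS 5hmC covered more, and iPS 5mC less, of the length of the peaks with day-3 5hmC. In the widest group the values were 85.9% against 80.3% for iPS 5hmC and 62.7% against 67.8% for iPS 5mC. In the narrowest group they were 91.2% against 88.8% and 88.3% against 88.9%, so that the 5mC contrast was small there.

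**Figure D3:**
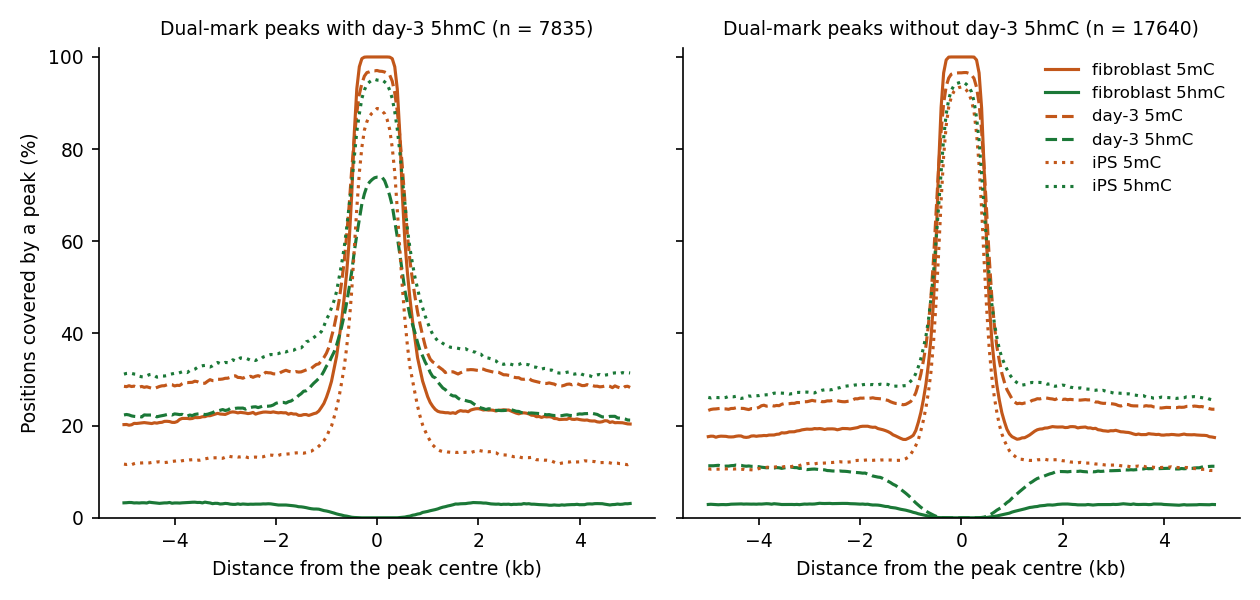
The y axis gives the share of positions, in percent, covered by a peak of each of the 6 lists at each distance from the centre of the dual-mark peaks (x axis, kb), for peaks with (left) and without (right) a day-3 5hmC peak. Fibroblast 5hmC is 0 at the centre by the rule, day-3 5hmC reaches 73.9% at the centre on the left, and the iPS 5mC line peaks at 88.8% on the left and 93.5% on the right.

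Around the dual-mark peaks the marks fell off over about 1 kb and then reached a plateau. At the centre, iPS 5hmC covered 94.7% and iPS 5mC 92.0% of the positions. At 1 kb on both sides the means were 33.9% and 15.0%, and at 5 kb they were 27.5% and 10.8%. Fibroblast 5mC covered 20.2% of the positions at 1 kb and 18.4% at 5 kb. The flanking coverage by day-3 5hmC differed between the subsets: 5 kb from the centre it was 21.8% of positions beside peaks with day-3 5hmC and 11.2% beside those without. Among dual-mark peaks without day-3 5hmC, 19.01% (18.4 to 19.6) had a day-3 5hmC peak within 1000 bp and 75.8% had one within 10000 bp. The median gap to it was 3845 bp.

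The position of day-3 5hmC inside the dual-mark peaks was set beside that of the iPS marks. In 97.7% of the 7835 dual-mark peaks with day-3 5hmC, the day-3 and iPS 5hmC peaks shared at least 1 bp, which is close to fixed by the rule because iPS 5hmC covered 87.2% of their length. Of the base pairs under day-3 5hmC in these peaks, 91.9% were under iPS 5hmC, against 79.7% of the rest of their length. For iPS 5mC these values were 73.5% and 67.5%. Whether peak ends lie more often in the rest of the length, which would lower the values of 79.7% and 67.5%, was not tested. The day-3 5hmC peak covered a median of 71.4% of the dual-mark peak, with quartiles of 45.5% and 92.1%, and covered all of it in 1180 cases. The 8233 day-3 5hmC peaks involved had a median score of 144.31, against 115.2 for the other day-3 5hmC peaks. In ranks, the medians lay at the 59.0th and 49.4th percentiles of that list. The peaks involved were also wider, with medians of 1044 against 918 bp, so their scores are given as a description only.

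Day-3 5hmC on dual-mark peaks followed the score of the later 5hmC peak and hardly that of the later 5mC peak. In 5 equal groups of the dual-mark peaks ranked by iPS 5hmC score, the share with day-3 5hmC was 18.6%, 24.4%, 27.8%, 35.7% and 47.3% from the lowest to the highest. Ranked by iPS 5mC score the shares were 30.5%, 29.8%, 29.4%, 30.2% and 33.9%. Ranked by the fibroblast 5mC score they went from 23.8% to 42.9%. Since the fibroblast score moves with both, each of its 5 groups was split at the median of an iPS score. The peaks with the higher iPS 5hmC score had day-3 5hmC more often in 5 of 5 groups, by 9.84 to 17.5 points. For the peaks with the higher iPS 5mC score, minus the others, the differences were -1.15, 0.657, -4.49, -6.61 and -4.14 points from the lowest group up, and in the upper 3 groups the interval lay under 0. Within these groups of fibroblast 5mC score, peaks with early 5hmC therefore had higher iPS 5hmC scores and, in the upper 3 groups, lower iPS 5mC scores. Width was not matched in this split. Without grouping, the median percentile of the iPS 5mC score was 64.5 for peaks with and 62.4 for peaks without day-3 5hmC.

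**Figure D4:**
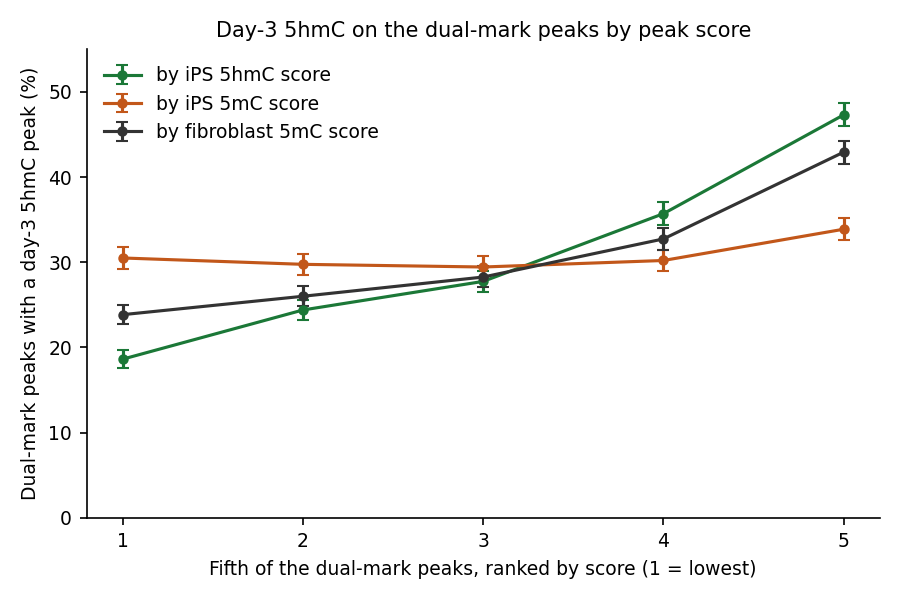
The y axis gives the share, in percent, of dual-mark peaks with a day-3 5hmC peak, and the x axis 5 equal groups of these peaks ranked by each of 3 scores, with bars for 95% Wilson intervals. The share rises from 18.6% to 47.3% with the iPS 5hmC score and stays between 29.4% and 33.9% over the groups of the iPS 5mC score.

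Peaks just inside and just outside the limits of the rule are given here as a description. Of the dual-mark peaks, 265 had at most 100 bp of iPS 5mC, and 31.3% of them had day-3 5hmC. Across that limit, 532 5hmC-only peaks had an iPS 5mC peak within 100 bp without overlap, and 34.2% had day-3 5hmC. At the limit of iPS 5hmC, 233 dual-mark peaks had at most 100 bp of it and 299 5mC-only peaks had an iPS 5hmC peak within 100 bp, with day-3 5hmC on 21.5% and 18.4%. At the limit of fibroblast 5hmC, 170 dual-mark peaks had a fibroblast 5hmC peak within 100 bp, and 42.4% had day-3 5hmC. Among 166 peaks just across, with at most 100 bp of fibroblast 5hmC and both marks in iPS cells, the share was 43.4%, and over all 5759 such peaks with fibroblast 5hmC it was 60.2%. Of all dual-mark peaks, 6.72% had a fibroblast 5hmC peak within 1000 bp, and the median gap to the nearest one was 11246 bp.

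Along the genome, dual-mark peaks occurred on each autosome at similar shares of the fibroblast 5mC peaks without 5hmC, from 23.2% on chromosome 3 to 31.2% on chromosome 19. Per Mb of the span that the lists cover, their number ranged from 6.38 on chromosome 3 to 15.6 on chromosome 11. Chromosome X held 11 of them among 154 such 5mC peaks, or 7.14% (4.03 to 12.3), and chromosome Y held 1. In the last 10 Mb of the autosomes, at the end away from the centromere, 32.1% (31.3 to 32.9) of the 5mC peaks without 5hmC were dual-mark peaks, against 27.0% (26.6 to 27.3) between the ends and 25.2% in the first 10 Mb. Their day-3 5hmC shares in these parts were 31.1%, 30.6% and 31.4%, with intervals that overlap (29.7 to 32.5, 30.0 to 31.3 and 28.9 to 34.1). By chromosome, the share with day-3 5hmC went from 26.3% (24.1 to 28.7) on chromosome 9 to 37.7% (34.6 to 40.9) on chromosome 19.

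Dual-mark peaks often lay close to each other. The median gap to the next was 17299 bp, and 57.7% had another within 10000 bp. Joined over gaps of at most 10 kb, 626 runs of 5 or more peaks held 4258 of them, and 10770 peaks stood alone. Neighbours tended to share their day-3 state. When 2 dual-mark peaks lay 2 to 10 kb apart, the second had day-3 5hmC in 43.4% (41.2 to 45.6) of cases if the first had it and in 27.4% (26.0 to 28.8) if not. Pairs resting on 1 day-3 5hmC peak were left out. At gaps of 50 to 200 kb these shares were 31.9% and 25.8%, and at 200 kb and more they were 25.7% and 23.6%, with intervals that overlap.

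The 3 windows of 100 kb with the most dual-mark peaks were all on chromosome 5. The window from 116000001 to 116100000 held 21 dual-mark peaks among 31 fibroblast 5mC peaks, 7 of them with day-3 5hmC and 21 with day-3 5mC. In the order fibroblasts, day 3 and iPS cells, peaks of 5hmC covered 1.61, 28.4 and 58.3 kb of it, and peaks of 5mC covered 52.5, 64.0 and 34.3 kb. The window from 125500001 to 125600000 also held 21, of which 19 had day-3 5hmC. There the 5hmC coverage went from 10.9 kb in fibroblasts to 68.7 kb on induction, and it was 60.9 kb in the iPS list. Covered length depends on the length of each list and is not a level of the mark. In the third window, from 116300001 to 116400000, 10 of 19 had day-3 5hmC. It begins the longest run of dual-mark peaks, 28 peaks over 139.9 kb from 116306423 to 116446340, of which 15 had day-3 5hmC and 28 had day-3 5mC.

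**Figure D5:**
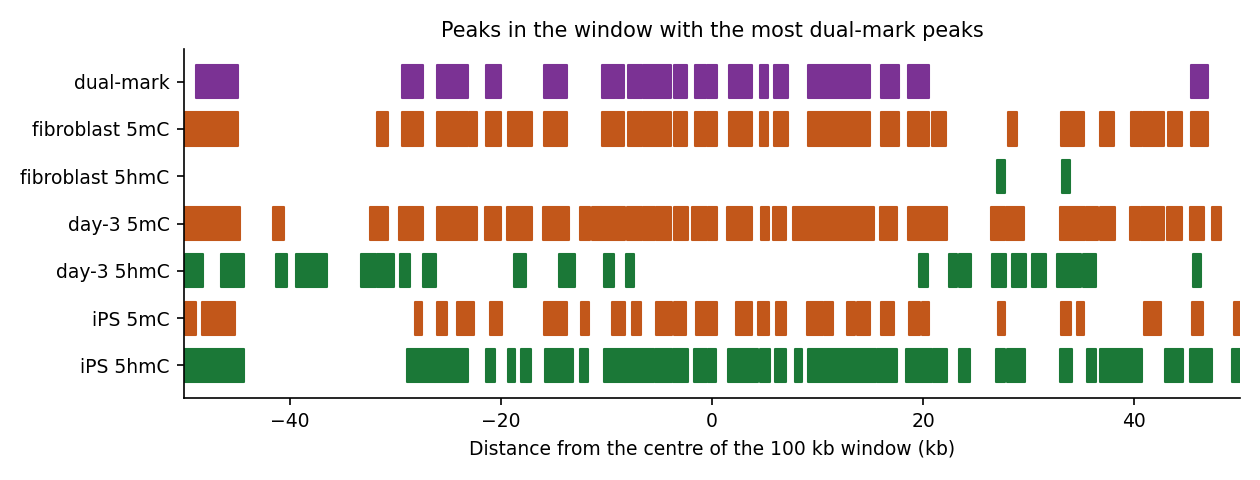
Peaks of the 6 lists and the 21 dual-mark peaks in the window of chromosome 5 with the most of them, drawn to scale by distance from the centre of the window (x axis, kb), with 1 row per list. Fibroblast 5hmC covers 1.61 kb of the 100 kb, and iPS 5hmC covers 58.3 kb. The iPS 5hmC lies both outside the dual-mark peaks and on them, where the rule requires it, and these peaks span 37.4 kb.

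Windows with many dual-mark peaks ranged from none to all with early 5hmC. In the 218 windows with at least 10 of them, the median share with day-3 5hmC was 40.0%, with quartiles of 25% and 50%. In 11 windows none had it and in 1 window all had it. These extremes were chosen after their values were seen. On chromosome 11 from 120100001 to 120200000, all 10 dual-mark peaks had day-3 5hmC, and 5hmC covered 2.11, 48.6 and 39.4 kb at the successive stages. On chromosome 10 from 75800001 to 75900000, 0 of 14 had it, and 5hmC covered 1.75, 8.36 and 42.4 kb. In that window the 5mC coverage was 35.1, 41.5 and 18.7 kb, and in the window on chromosome 11 it was 24.4, 33.2 and 20.1 kb. The contrast between these windows at day 3 was fixed by their choice.

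Among single peaks, the highest fibroblast 5mC score of a dual-mark peak with day-3 5hmC was 3128.53, on chromosome 4 from 132616569 to 132622689. This peak was 6121 bp wide. Day-3 5mC and iPS 5hmC covered all of it, 2 iPS 5mC peaks covered 64.3% and 3 day-3 5hmC peaks covered 45.0%. The next was on chromosome 15 from 76002217 to 76014734, which at 12518 bp was also the widest dual-mark peak. There day-3 5hmC covered 60.6%, iPS 5hmC 97.8% and iPS 5mC 96.0%. The third, on chromosome 4 from 141027171 to 141033913, had 77.4% of its length under day-3 5hmC and 93.8% under iPS 5mC. In these 3 peaks day-3 5hmC was split into 3 peaks each, whereas 1 iPS 5hmC peak spanned them.

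The highest-scoring dual-mark peaks without day-3 5hmC reached scores of 2805, 2544 and 2363. The first, on chromosome 12 from 113411583 to 113416777, had day-3 5mC over its whole length, iPS 5hmC over 95.2% and iPS 5mC over 66.8%, and the nearest day-3 5hmC peak was 1609 bp away. The second, on chromosome 3 from 108214561 to 108218155, had iPS 5hmC over 87.7% and iPS 5mC over 84.8%, with the nearest day-3 5hmC peak 935 bp away. The third, on chromosome 18 from 81167781 to 81171882, had iPS 5hmC over 89.9% and iPS 5mC over 74.0%. Strong fibroblast 5mC thus occurred with no 5hmC peak at day 3 as well as with one. All of these peaks were chosen by score and day-3 state, and the rule requires iPS 5hmC, so this is a description. The iPS 5hmC score was 3100 on each of the named peaks with day-3 5hmC. On those without it the score was 1243, 1162 and 1364.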

How the data were processed

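The build mm9 and the tools MACS 1.4.1, Bowtie 0.12.7 and CASAVA 1.8 are named in the submitters' processing notes, and the authors deposited 1 peak list per library, with a position and a score per peak. The score was read as the caller's 10 times negative log10 p-value, which the files do not state, and its lowest value was 50.00 or 50.01. Not given in the sources used here are an input library, the caller's settings, how duplicates were handled and the read numbers. Per the labels' protocols, 500 ng of adapter-ligated DNA entered each precipitation, with 14 to 16 cycles of amplification. Antibody capture favours CpG-rich fragments.

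Overlaps of at least 1 bp were counted in Python 3.11.15 with numpy 2.4.6 and pandas 2.3.3, and figures used matplotlib 3.10.9. The counting was tested on simulated data for 104011 peaks and 5 lists, with 0 wrong. Coordinates are counted from 1. The alternatives were a score minimum of 100, other overlap rules, lists of equal length, joined peaks, autosomes only and a width range. Named regions followed a rule (the 3 windows with the most dual-mark peaks, the longest run, the widest peak and the 3 best-scoring peaks with and without day-3 5hmC). The members, lists and rules were chosen with earlier results of these data known.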

Additional observations from a re-analysis of the deposited data

How the results depend on the processing

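No paired analysis was possible because each stage and mark had 1 library, so that there was no replicate to leave out. Each alternative counted the same peaks in another way. The alternatives within windows, those weighted by width and score, and those for the share of dual-mark peaks, the shared iPS base pairs and the 5mC split were chosen after seeing the data. Restricting to autosomes, or asking for no fibroblast 5hmC peak within 1000 bp, moved no result beyond its interval. The dual-mark peaks minus the 5hmC-only peaks stayed below 0 under each of the 10 alternatives and the difference from 5mC-only peaks stayed above 0.

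With a score of at least 100 there were 8357 dual-mark peaks, 19.8% of the 5mC peaks without 5hmC. Day-3 5hmC lay on 25.5% and day-3 5mC on 98.9% of them, with differences of 15.5 points from 5mC-only peaks and 7.22 from peaks with neither mark. With as many best-scoring peaks of each list as the shortest list holds there were 9045, or 24.6%, with shares of 20.5% and 91.2%, differences of 12.2 and 3.99 points, and shared iPS base pairs in 98.6%. Day-3 5mC was then 1.52 points more frequent on dual-mark peaks with day-3 5hmC than on those without. With an overlap of at least 50% of the peak the share of dual-mark peaks was 24.0%, the day-3 shares 22.6% and 97.4%, and the differences from 5hmC-only, 5mC-only and neither-mark peaks -7.00, 13.6 and 5.24 points. With the centre inside the other peak these values were 24.5%, 23.4%, 97.4%, -6.57, 14.2 and 5.95. Shared iPS base pairs were present in 100% in both by construction. With peaks within 1000 bp joined they were 29.0%, 35.1%, 98.0%, -0.569, 22.8 and 16.3, and shared iPS base pairs 97.0%. For peaks of 800 to 1200 bp there were 12523 dual-mark peaks, and the values were 24.9%, 26.1%, 97.4%, -8.28, 14.9 and 5.07, with shared iPS base pairs in 99.2%. Within the same windows the differences from 5mC-only and neither-mark peaks were 15.2 and 6.33 points. Weighted to width and score the 3 differences were -8.55, 17.3 and -1.43, the last of which reversed. The 5mC split by day-3 5hmC reversed to -0.367 points with a score of at least 100, -0.272 with an overlap of 50%, -0.168 with the centre and -0.0892 for peaks of 800 to 1200 bp. The cause of these changes was not tested. The score, length and width limits also leave fewer peaks. The unknown depth limits how an absent peak can be read.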
